A study of Mus musculus with 8 samples.

Results

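The nuclear genes for subunits of respiratory complex I were examined in quadriceps muscle of mice with and without GRSF1 in skeletal muscle. The genes were those whose symbol is Ndufa, Ndufb, Ndufc, Ndufs or Ndufv followed by a number, together with *Ndufab1*, and they were found through the RefSeq accession that the array files give for each probe that is not a control. The rule took 38 genes of the 22911 named in this way, with 44 probes, and left out the assembly factors named Ndufaf. The RefSeq table used for names holds 46 genes that fit the rule, 41 of them protein-coding. Of these 41, *Ndufb1*, *Ndufb4b* and *Ndufb4c* had no probe matched by accession and are not analysed here.

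Complex I oxidizes NADH, passes the electrons to ubiquinone and pumps protons across the inner mitochondrial membrane. Its core subunits carry the flavin, the iron-sulfur clusters and the proton channels, and the supernumerary subunits surround them and serve in assembly and stability. The core of the matrix arm is encoded in the nucleus by 7 Ndufs and Ndufv genes, while the core of the membrane arm is encoded in mitochondrial DNA. Oxidative tissues such as heart and skeletal muscle depend on the enzyme, and inherited defects of its subunits cause encephalopathies and myopathies. GRSF1 is an RNA-binding protein of mitochondrial RNA granules, where newly made mitochondrial transcripts are processed, so that the nuclear share of a complex built from both genomes is of interest when GRSF1 is missing. The mitochondrially encoded subunits lie outside this rule and were not analysed here.

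All 6 mice were males aged 17 months, 3 Grsf1cKO and 3 WT. In Grsf1cKO mice the Grsf1tm1a allele had been crossed with FLPo mice to remove its LacZ and Neo cassettes, which left exons IV and V between loxP sites, and the floxed mice had then been crossed with Myf5Cre mice. *Myf5* drives Cre in the myogenic lineage, so that vessels, nerve and blood cells in the muscle are not expected to lose *Grsf1*. WT mice are labelled as wild type, with no further allele. The labels name the muscle as vastus intermedius and the study's text as rectus femoris, 2 different heads of the quadriceps. Agilent 1-color arrays were used, and each value below is a log2 signal after quantile normalization of the 8 arrays, with the arrays of a mouse averaged.

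The 38 genes lie on 15 chromosomes, 5 of them on chromosome 17 and 2 on the X chromosome. RefSeq promoters of GRCm38.p6 were at hand for 33 of the 38. In the 250 bases before the start, read on both strands, CCGGAAG, a core bound by ETS factors such as GABP, was in 3 of the 33 (9.09%), *Ndufb6*, *Ndufb7* and *Ndufs3*, and in 7.83% of the 27025 genes with a promoter in the table. GCGCATGCG, the core of the NRF1 motif, was in 2 of the 33 (6.06%), *Ndufa8* and *Ndufa11*, against 1.64%. TATAAA was in 4 (12.1%) against 14.3%, and neither TCAAGGTCA, bound by estrogen-related receptors, nor AAGATGGCG, bound by YY1, was in any, against 0.422% and 0.710%. A match is a description and not evidence of binding. The upstream stretches of *Ndufs3*, a core subunit (chr2:90904722-90904971, minus strand), and of *Ndufa11*, a membrane arm subunit (chr17:56717512-56717761, plus strand), are shown as an example of each kind. Capitals mark the ETS core in *Ndufs3* and the NRF1 core in *Ndufa11*, which matches on both strands with a shift of 1 base.
Ndufs3: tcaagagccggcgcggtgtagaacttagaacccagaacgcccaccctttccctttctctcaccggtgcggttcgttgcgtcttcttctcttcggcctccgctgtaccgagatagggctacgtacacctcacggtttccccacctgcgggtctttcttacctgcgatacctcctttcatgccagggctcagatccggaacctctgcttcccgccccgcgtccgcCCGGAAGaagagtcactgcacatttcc
Ndufa11: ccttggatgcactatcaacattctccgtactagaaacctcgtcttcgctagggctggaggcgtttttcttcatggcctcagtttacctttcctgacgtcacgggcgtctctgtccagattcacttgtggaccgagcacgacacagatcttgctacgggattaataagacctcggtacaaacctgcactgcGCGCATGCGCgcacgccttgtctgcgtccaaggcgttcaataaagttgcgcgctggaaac
The median GC content of the 33 stretches was 57.6%, against 52.4% for all promoters.

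Mouse 1 of each genotype had a repeat array. Slide 1 held only WT arrays, the first array of WT 1 and that of WT 2. Slide 2 held all Grsf1cKO arrays, the repeat of WT 1 and the array of WT 3, so that slide and genotype are partly confounded. The repeat of Grsf1cKO 1 stood apart from the rest. On it 88.9% of spots were well above background, against 66.3% to 73.1% on the other 7 arrays, and the 25th percentile of its signal was 55.5, against 9.68 to 15.7. The SD of the log2 difference between repeat and first array was 0.570 for Grsf1cKO 1 and 0.208 for WT 1, over 34936 probes that no array showed at background. For the 38 complex I genes the median difference between repeat and first array was -0.02 for Grsf1cKO 1 (from -0.13 for *Ndufv2* to 0.06 for *Ndufa13*) and 0.00 for WT 1 (from -0.13 for *Ndufa9* to 0.09 for *Ndufb9*). The bright complex I probes thus differed little between the arrays of a mouse once quantile normalized. Results are given with all arrays and, where marked, with the first array of each mouse.

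*Grsf1* was measured first, as a check of the labels. Its log2 signal was 12.15, 12.02 and 12.08 in Grsf1cKO 1, 2 and 3, against 14.30, 14.25 and 14.27 in WT 1, 2 and 3. The genotypes were far apart, with a log2 difference of -2.19 (limma, adjusted p = 0.00328, standard error 0.0811), and the first arrays gave -2.19 (limma, adjusted p = 0.00231). The labels were therefore followed as given. Where the probe lies relative to the floxed exons is not given in the sources used here. Of the 10 muscle fibre markers, 10 were well above background in all 6 mice, with *Acta1* between 18.69 and 18.75, as befits muscle. *Myf5*, whose promoter drove Cre, was not well above background in any mouse, while *Pax7*, the marker of satellite cells, was between 8.02 and 8.81.

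No complex I gene passed the criteria for a change, which asked in limma for a false discovery rate under 0.2 (Benjamini-Hochberg), a p under 0.01 before adjustment and more than a 1.5-fold difference. All 38 genes were well above background in all 6 mice, so that the filter on dim probes removed none of them, and no spot was saturated. Of the 38888 probes tested, 1 was higher in Grsf1cKO by these criteria (0.00257%) and 2 were lower (0.00514%), so that a count of 0 among 38 genes is near the background. An unadjusted p under 0.05 was reached by 0 of the 38 genes, against 4.25% of all tested probes. The z-test named in the study's methods also called 0 of the 38 by all criteria. It gave 8 an unadjusted p under 0.05 (21.1%), against 10.8% of all tested probes. By this z-test 4 of the 38 genes (10.5%), *Ndufv2*, *Ndufa2*, *Ndufs6* and *Ndufb10*, passed the limits on p and on false discovery rate and failed on fold change alone, with log2 fold changes of -0.06, -0.06, -0.06 and -0.07, against 5.09% of all tested probes past these limits whatever the fold. Their adjusted p by the z-test were 0.00162, 0.00227, 0.0377 and 0.0637, and with the deposited z-scores their fold changes were positive. The z-test takes the SD of each probe from 3 mice of a genotype and uses a normal distribution. A low SD among so few mice can thus by itself give a low p. In limma the unadjusted p of these 4 genes were 0.423, 0.429, 0.435 and 0.404. In limma the lowest p were those of *Ndufs1*, *Ndufa4* and *Ndufa9*, and every adjusted p of a complex I gene was at least 0.996.

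The values were tight enough to bound the change. The log2 fold changes ran from -0.17 to 0.06, and the 95% interval of limma lay inside a 1.5-fold change in either direction for 37 of the 38 genes (97.4%), against 62.9% of all tested probes and 95.7% of the brightest 5%, so that the share is near that of the brightest probes. Across the 20 other settings in which intervals were computed, between 37 and 38 genes lay inside. The median SD between mice of a genotype was 0.0577 for the complex I genes, 0.0827 for the brightest 5% of probes and 0.181 for all tested probes. The median width of an interval to either side was 0.20, so that shifts of the size seen here cannot be told from 0.

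**Figure D1:**
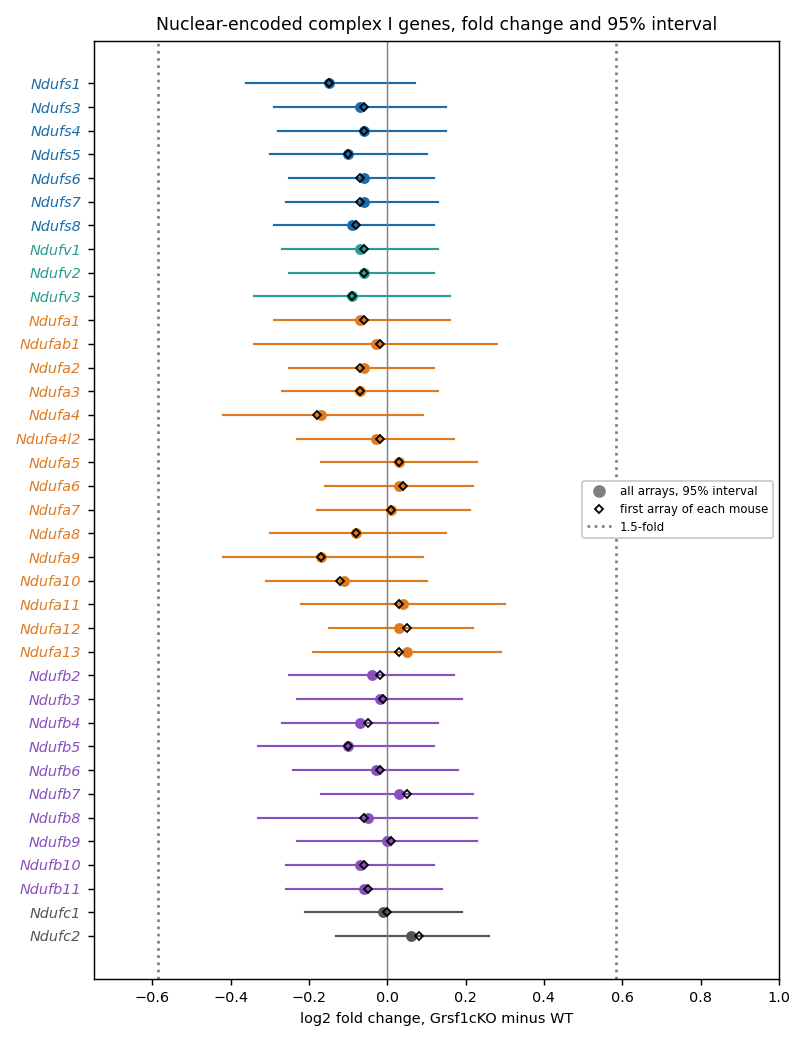
Log2 fold change (Grsf1cKO minus WT, x axis) of 37 of the 38 complex I genes (y axis, colored by subunit family). Filled circles show all arrays with the 95% interval from limma, open diamonds show the first array of each mouse, and dotted lines mark 1.5-fold. All circles lie between -0.17 and 0.06, and all intervals shown lie inside the dotted lines. With the deposited z-scores, which are not plotted, most values turn positive.

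Most complex I genes had values slightly below 0 under quantile normalization, and most had values above 0 with the deposited z-scores. Of the 38 genes, 30 had a negative log2 fold change (78.9%), against 57.5% of all tested probes and 61.6% of the brightest 5% of probes, and the median was -0.06 against -0.03 and -0.02. With the first arrays 29 of the 38 were negative and the median was again -0.06, against -0.01 for all tested probes. The direction did not hold under every scaling. With the deposited z-scores of all arrays 6 of the 38 were negative and the median was 0.05, against -0.05 for all tested probes. With the z-scores of the first arrays, a setting chosen after seeing the data, 33 of the 38 were negative and the median was -0.09, so that the positive sign came with the repeat arrays included. Scaling to the 75th percentile gave 36 negative values and a median of -0.10.

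**Figure D2:**
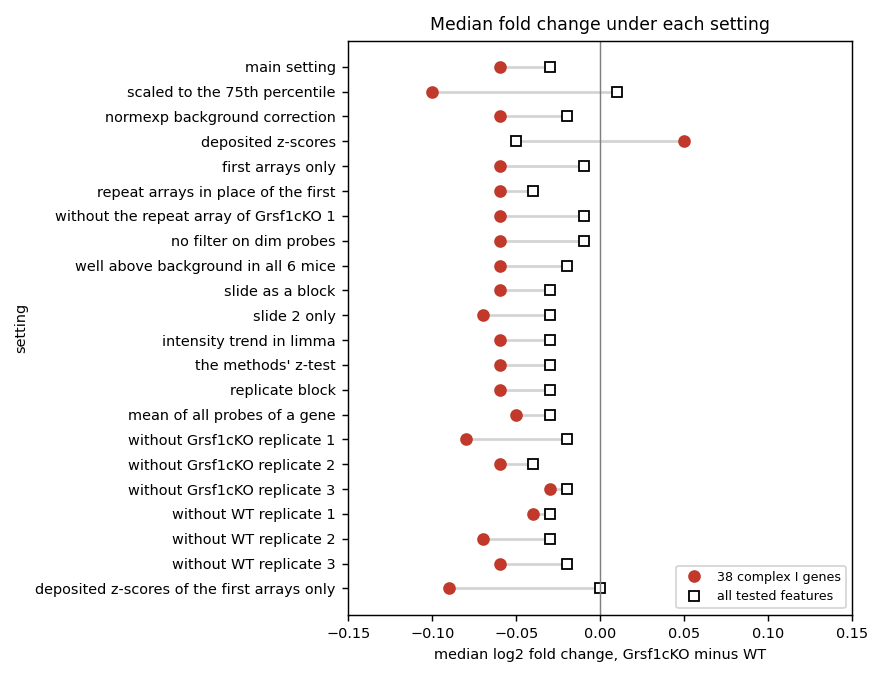
Median log2 fold change (x axis) of the 38 complex I genes (filled circles) and of all tested probes (open squares) under each setting (y axis). The complex I median lies between -0.10 and -0.03 except with the deposited z-scores of all arrays, where it is 0.05.

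In 8 genes the 3 Grsf1cKO mice were all below the 3 WT mice, which is 21.1% of the 38, against 6.27% of all tested probes and 7.11% of the brightest 5%. In 0 genes were they all above, against 3.08%. The 8 genes were *Ndufs1*, *Ndufs6*, *Ndufv1*, *Ndufv2*, *Ndufa2*, *Ndufa9*, *Ndufa10* and *Ndufb10*. A 2-sided exact permutation test of 3 mice against 3 gives each of them p = 0.1, the smallest it can give. With the first arrays 6 genes were lower without overlap (background 5.28%), *Ndufa10*, *Ndufa2*, *Ndufb10*, *Ndufs1*, *Ndufs5* and *Ndufs6*, and 2 were higher (background 3.86%), *Ndufa12* and *Ndufc2*. With the deposited z-scores of all arrays 1 gene was lower without overlap, *Ndufa4l2* (background 5.86%), and 0 were higher (background 2.02%), and with those of the first arrays there was none. Scaling to the 75th percentile gave 8 genes lower without overlap (background 3.51%), and normexp background correction gave 8 (background 6.24%). The count was thus lost with the deposited z-scores and kept with these other scalings.

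The mice of a genotype were not alike. The mean deviation of the 38 genes from the WT mean was -0.02, -0.05 and -0.08 in Grsf1cKO 1, 2 and 3, against 0.03, -0.03 and -0.01 in WT 1, 2 and 3. Grsf1cKO 3 held the lowest value of the 6 mice for 22 of the 38 genes, and WT 1 held the highest for 17. After scaling to the 75th percentile the deviations were -0.11, -0.10 and -0.05 in Grsf1cKO mice against 0.00, -0.06 and 0.06 in WT mice, so that Grsf1cKO 3 was no longer the lowest. With the deposited z-scores they were 0.20, 0.06 and -0.11 in Grsf1cKO mice against 0.11, -0.06 and -0.05 in WT mice, with Grsf1cKO 3 again the lowest and Grsf1cKO 1 the highest.

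**Figure D3:**
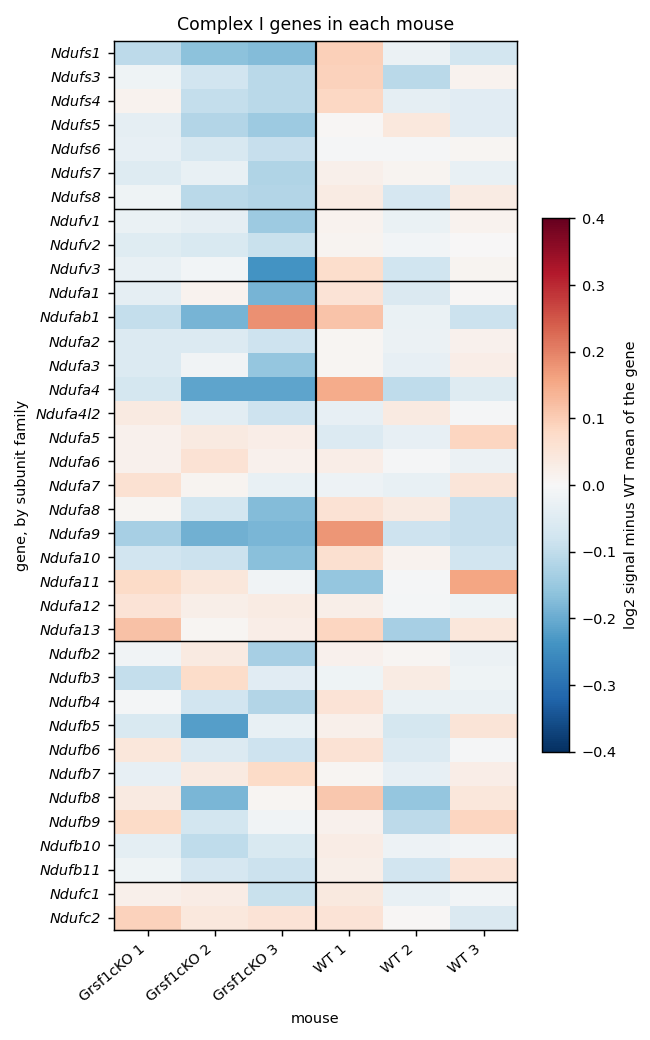
Log2 signal of 37 of the 38 complex I genes (y axis, by subunit family) in each mouse (x axis), minus the mean of the 3 WT mice for that gene, on a color scale from -0.4 to 0.4. Blue cells crowd in the column of Grsf1cKO 3. The shades depend on quantile normalization, and the order of the mice changes with scaling to the 75th percentile and with the deposited z-scores.

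Grsf1cKO 3 also differed from the other mice in markers of slow fibres and macrophages. *Tnni1*, the slow troponin I, had log2 signals of 11.19, 10.61 and 14.33 in Grsf1cKO 1, 2 and 3, against 10.35, 11.17 and 11.21 in the WT mice. *Cd68*, a macrophage marker, had 11.80, 11.96 and 13.30 in Grsf1cKO mice against 11.65, 11.85 and 11.57 in WT mice. Grsf1cKO 3 was the highest mouse for both genes, as it was for 6 of the 7 slow fibre genes and 5 of the 5 macrophage markers. All 7 slow fibre genes and all 5 macrophage markers were tested, and *Myl3* and *Csf1r* were the brightest of their lists. The summed signal of the slow fibre genes was 233000, 245000 and 299000 in Grsf1cKO 1, 2 and 3, against 228000, 244000 and 244000 in WT 1, 2 and 3. For the macrophage markers the sum was 21900, 22000 and 40900 in Grsf1cKO and 23500, 25500 and 21200 in WT mice. Without Grsf1cKO 3 the complex I median was -0.03 and 27 of the 38 values were negative, and 9 genes were lower without overlap (23.7%), where 2 mice face 3 and 11.9% of all tested probes were. The part of these markers in the complex I values was not tested. In whole muscle, fewer cells of a type and less RNA per cell cannot be told apart.

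Among the core subunits, *Ndufs1*, the largest iron-sulfur subunit, had log2 signals of 16.91, 16.85 and 16.84 in Grsf1cKO 1, 2 and 3, against 17.11, 16.99 and 16.94 in WT 1, 2 and 3. The genotypes did not overlap, with a gap between Grsf1cKO 1 and WT 3 that was smaller than the range among the WT mice. Its log2 fold change was -0.15 (standard error 0.0877, 95% interval -0.36 to 0.07, exact permutation p = 0.1). With an intensity trend in limma, *Ndufs1* was the 1 complex I gene with an unadjusted p under 0.05, and with the deposited z-scores its value was -0.01.

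*Ndufv1*, which binds NADH and the flavin, had 17.18, 17.17 and 17.06 in Grsf1cKO mice against 17.22, 17.18 and 17.22 in WT mice. *Ndufv2*, its iron-sulfur partner, had 17.03, 17.02 and 16.99 in Grsf1cKO mice against 17.09, 17.07 and 17.08 in WT mice. In both genes the Grsf1cKO mice were below the WT mice by small steps, with Grsf1cKO 1 and WT 2 equal to 2 decimals for *Ndufv1*, and Grsf1cKO 3 was the lowest. The log2 fold changes were -0.07 for *Ndufv1* (interval -0.27 to 0.13) and -0.06 for *Ndufv2* (interval -0.25 to 0.12). With the deposited z-scores both were 0.04.

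*Ndufs3*, a core subunit of the ubiquinone-binding module, had 17.31, 17.25 and 17.22 in Grsf1cKO mice against 17.42, 17.22 and 17.34 in WT mice. *Ndufs7*, which carries the last iron-sulfur cluster before ubiquinone, had 17.62, 17.64 and 17.55 in Grsf1cKO mice against 17.69, 17.68 and 17.64 in WT mice. *Ndufs8*, another iron-sulfur protein, had 16.61, 16.52 and 16.51 in Grsf1cKO mice against 16.66, 16.56 and 16.66 in WT mice. The genotypes overlapped or touched in all 3 genes. Their log2 fold changes were -0.07, -0.06 and -0.09, with standard errors of 0.0909, 0.0792 and 0.0832. Over the 7 core genes the median was -0.07 with 7 negative values, while 2 of the 7 were negative with the deposited z-scores.

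**Figure D4:**
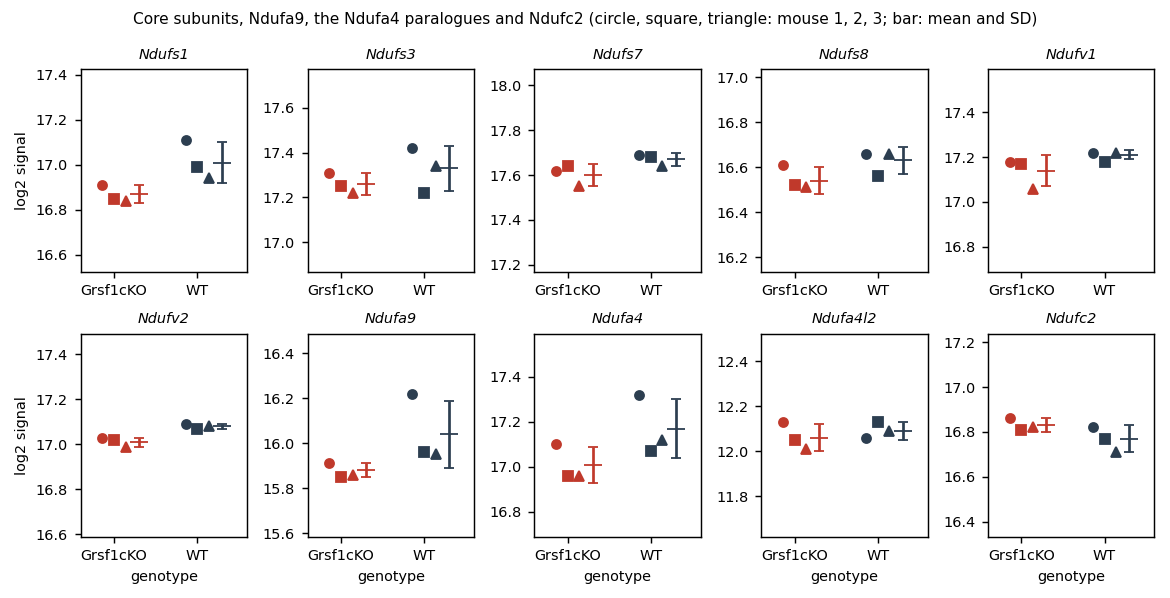
Log2 signal (y axis, a span of 0.9 in every panel) of 6 core subunits, *Ndufa9*, *Ndufa4*, *Ndufa4l2* and *Ndufc2* in each mouse (circle, square and triangle for mouse 1, 2 and 3), by genotype (x axis), with mean and SD of 3 mice beside them. The genotypes are separate for *Ndufs1*, *Ndufv2* and *Ndufa9*. For *Ndufv1*, Grsf1cKO 1 and WT 2 are level as drawn.

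The subunit families are compared by their counts, since differences between families were not tested. All 8 Ndufs genes had negative values, with a median of -0.08, and all 3 Ndufv genes did, from -0.09 to -0.06, but with the deposited z-scores 2 of the 8 and 0 of the 3 were negative. Of the 15 Ndufa genes 9 were negative (range -0.17 to 0.05, median -0.03), and of the 10 Ndufb genes, whose products lie in the distal membrane arm, 9 were negative (range -0.10 to 0.03, median -0.04), but with the z-scores 4 and 0 were. The Ndufc pair had -0.01 for *Ndufc1* and 0.06 for *Ndufc2*, and with the z-scores 0 of the 2 were negative. No family median was more than 0.08 from 0 under quantile normalization, and the ranges of Ndufa and Ndufb overlap those of every other family.

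Among the supernumerary subunits, *Ndufa9*, which sits where the matrix and membrane arms meet, had 15.91, 15.85 and 15.86 in Grsf1cKO mice against 16.22, 15.96 and 15.95 in WT mice. WT 1 was well above the other 5 mice, and Grsf1cKO 1 was 0.04 below the nearest WT mouse. The log2 fold change was -0.17 (standard error 0.105, interval -0.42 to 0.09, exact permutation p = 0.1), and it was -0.08 without WT 1 and -0.06 with the deposited z-scores. The first array of Grsf1cKO 1 gave 15.96 and its repeat 15.87, and with the first arrays *Ndufa9* was not among the genes without overlap.

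*Ndufa10*, another supernumerary subunit, had 16.62, 16.61 and 16.53 in Grsf1cKO mice against 16.76, 16.71 and 16.62 in WT mice. *Ndufa2* had 17.37, 17.37 and 17.34 in Grsf1cKO mice against 17.43, 17.40 and 17.44 in WT mice. *Ndufb10* had 17.19, 17.13 and 17.17 in Grsf1cKO mice against 17.26, 17.21 and 17.22 in WT mice. In these genes the genotypes did not overlap, but the nearest mice were within 0.03 on the log2 scale, and for *Ndufa10* equal to 2 decimals. *Ndufs6*, needed late in assembly of the matrix arm, had 17.63, 17.60 and 17.57 in Grsf1cKO mice against 17.66, 17.66 and 17.67 in WT mice. The log2 fold changes of these 4 genes were -0.11, -0.06, -0.07 and -0.06 in the same order. With the deposited z-scores they were 0.01, 0.06, 0.05 and 0.06.

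The 4 highest log2 fold changes were those of *Ndufc2*, *Ndufa13*, *Ndufa11* and *Ndufa12*. *Ndufc2* had 16.86, 16.81 and 16.82 in Grsf1cKO mice against 16.82, 16.77 and 16.71 in WT mice. *Ndufa13*, known also as GRIM-19 for its link to interferon and cell death, had 18.18, 18.07 and 18.09 in Grsf1cKO mice against 18.15, 17.93 and 18.11 in WT mice. *Ndufa11*, a membrane arm subunit, had 14.79, 14.76 and 14.70 in Grsf1cKO mice against 14.56, 14.71 and 14.87 in WT mice. The genotypes overlapped in all 3. *Ndufa12* had 17.39, 17.36 and 17.37 in Grsf1cKO mice against 17.36, 17.33 and 17.32 in WT mice, so that Grsf1cKO 2 was level with WT 1 to 2 decimals. The log2 fold changes were 0.06, 0.05, 0.04 and 0.03, with exact permutation p of 0.3, 0.7, 0.8 and 0.2. After scaling to the 75th percentile *Ndufa13* had -0.10 and *Ndufa12* -0.02, while with the deposited z-scores the 4 genes had 0.18, 0.09, 0.10 and 0.14. *Ndufa11* turned to -0.04 without WT 1 and to -0.01 with slide as a block, and *Ndufa13* to -0.01 without WT 2.

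*Ndufa4* and *Ndufa4l2* are paralogues. The product of *Ndufa4* was first assigned to complex I and is now regarded as a subunit of complex IV, and *Ndufa4l2* is induced by HIF under hypoxia and lowers complex I activity. *Ndufa4* had 17.10, 16.96 and 16.96 in Grsf1cKO 1, 2 and 3, against 17.32, 17.07 and 17.12 in WT 1, 2 and 3. WT 1 was the highest mouse, and Grsf1cKO 1 lay between WT 2 and WT 3. The mean log2 difference was -0.17 (standard error 0.104, interval -0.42 to 0.09, exact permutation p = 0.2), and it was -0.09 without WT 1 and -0.05 with the deposited z-scores.

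*Ndufa4l2* had 12.13, 12.05 and 12.01 in Grsf1cKO mice against 12.06, 12.13 and 12.09 in WT mice. The genotypes overlapped, and the log2 fold change was -0.03 (standard error 0.0815, interval -0.23 to 0.17, exact permutation p = 0.4). The difference of *Ndufa4l2* and *Ndufa4* within each mouse, set to 0 at the WT mean, was 0.11, 0.18 and 0.13 in Grsf1cKO mice against -0.18, 0.14 and 0.04 in WT mice. WT 1 was apart from the other 5 mice in this measure. The genotypes differed by 0.14 (SD 0.03 in Grsf1cKO and 0.17 in WT mice, 2-sided exact permutation p = 0.3), and by 0.17 with the first arrays (exact permutation p = 0.3). Without WT 1 the difference was 0.05, and with the deposited z-scores it was -0.02. An unequal change of the paralogues was thus not detected with 3 mice of each genotype.

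Of the remaining genes, *Ndufs5* and *Ndufb5* stood at -0.10 and *Ndufv3* at -0.09. *Ndufab1*, the mitochondrial acyl carrier protein that also serves fatty acid and lipoic acid synthesis, had -0.03 with a wide interval (-0.34 to 0.28). *Ndufs4*, a subunit whose loss is used as a mouse model of Leigh syndrome, had -0.06 (interval -0.28 to 0.15).

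For 6 genes the array carries 2 probes of the gene, and the brighter stands for the gene in the values above. The dimmer probe of *Ndufa7* was not well above background in any mouse, so that 43 of the 44 probes were tested. In the other 5 genes the fold changes of the probes differed by less than 0.2 on the log2 scale. The dimmer probe of *Ndufv1* gave 0.04 where the brighter gave -0.07, and the genotypes overlapped with it. The dimmer probe of *Ndufa10* gave 0.02 against -0.11. For *Ndufa5* the dimmer gave -0.08 against 0.03, and for *Ndufa3* -0.01 against -0.07. The dimmer probe of *Ndufb5* gave -0.16 against -0.10. In *Ndufv1*, *Ndufa10* and *Ndufa5* the probes thus differed in sign. The genotypes failed to overlap with the brighter probe alone for *Ndufv1* and *Ndufa10*, and with the dimmer probe alone for *Ndufa5* and *Ndufb5*. *Ndufb4* has near-identical copies in the mouse genome, and whether its probe tells them apart was not tested.

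Genes that build or accompany complex I were looked at next. Of 19 assembly factors 18 were on the array and tested, and 0 passed the criteria or had an unadjusted p under 0.05. Of all tested probes 4.25% had such a p. The values of the assembly factors ran from -0.19 for *Ndufaf4* to 0.15 for *Ndufaf2*, with a median of -0.03 (-0.04 with the deposited z-scores). Of the 18, 10 were negative (55.6%) and 4 were lower without overlap (22.2%), against 57.5% and 6.27% of all tested probes. Of 39 nuclear subunits of complexes II to V 38 were tested, again with 0 past the criteria and 0 with an unadjusted p under 0.05. They ran from -0.20 for *Sdha*, the flavoprotein of succinate dehydrogenase, to 0.15 for *Cox7a2* of complex IV, with a median of -0.02. Lower without overlap were 4 of the 38 (10.5%), against 6.27% of all tested probes. The median of complexes II to V turned with the scaling, to -0.10 at the 75th percentile and to 0.06 with the deposited z-scores.

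Of 14 regulators of respiratory chain genes 14 were tested and 0 passed the criteria. Negative values were found for 13 (92.9%), against 57.5% of all tested probes, and the median was -0.09 against -0.03. The lowest was *Vegfa* at -0.34 (interval -0.72 to 0.04, exact permutation p = 0.2), and the highest *Ppargc1b* at 0.06. *Vegfa* is in the list as a target of hypoxia signalling and not as a regulator. *Ppargc1a*, a coactivator that drives mitochondrial biogenesis, had 12.63, 12.60 and 12.34 in Grsf1cKO mice against 12.84, 12.85 and 12.66 in WT mice. The Grsf1cKO mice were all below the WT mice, with a log2 fold change of -0.26 (interval -0.54 to 0.03, exact permutation p = 0.1). *Esrra*, its partner at respiratory chain promoters, was also lower without overlap, at -0.18, as was *Pprc1*, a relative of *Ppargc1a*, at -0.11, which makes 3 of the 14 regulators (21.4%), against 6.27% of all tested probes. The regulators' median was -0.11 with the deposited z-scores and at the 75th percentile. In the same order the median of all tested probes was -0.05 and 0.01, and that of complex I 0.05 and -0.10. The median of the assembly factors kept its sign as well, at -0.04 and -0.05.

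Slow fibre genes varied widely between mice, and fast fibre genes little. The 8 fast fibre genes ran from -0.05 for *Myh4* to 0.19 for *Myh2*, with a median of 0.00. Their median was -0.13 at the 75th percentile, with 7 of the 8 negative, and 0.09 with the deposited z-scores, with 0 negative. The 7 slow fibre genes ran from -0.59 for *Myh7* to 1.13 for *Tnni1*, with a median of 0.51 that was -0.01 without Grsf1cKO 3. *Myl2*, the slow regulatory light chain, had 13.46, 13.48 and 14.36 in Grsf1cKO mice against 13.12, 13.23 and 13.04 in WT mice. It was the 1 gene of all lists with an unadjusted p under 0.05 in limma (adjusted p = 0.996), and the genotypes did not overlap, Grsf1cKO 3 being the highest. None of the fibre type genes passed all criteria.

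**Figure D5:**
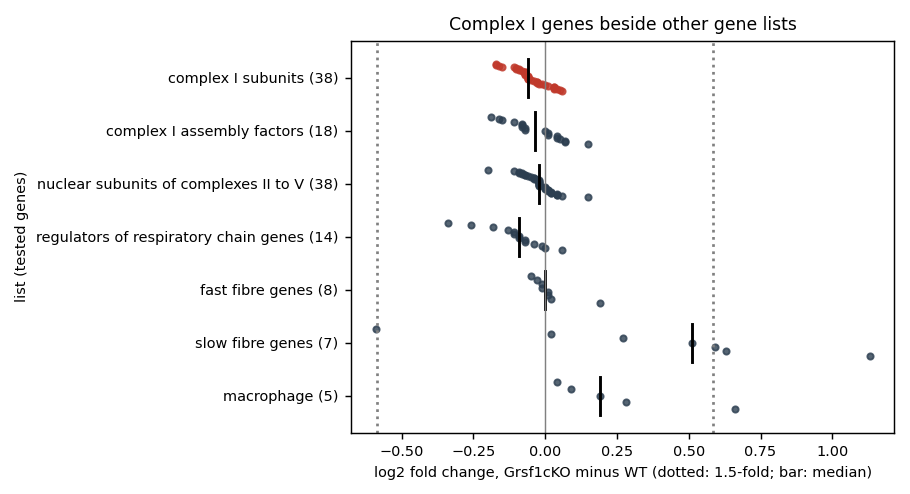
Log2 fold change (Grsf1cKO minus WT, x axis) of each tested gene in the complex I list and 6 other lists (y axis, with the number of tested genes), with the median as a bar and 1.5-fold as dotted lines. Complex I, assembly and complex II to V genes lie within 0.20 of 0, while slow fibre genes spread from -0.59 to 1.13. The signs of the complex I and complex II to V medians turn with the deposited z-scores.

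Markers of other cells were present in all mice. The 5 adipocyte markers ran from -0.71 for *Cfd* to 0.08 for *Adipoq*, and their summed signal was lowest in WT 3 (42000) and highest in WT 2 (138000). The 5 markers of endothelium and mural cells ran from -0.12 for *Kdr* to 0.14 for *Cspg4*. The 5 fibroblast and tendon markers ran from -0.12 for *Scx* to 0.29 for *Col1a1*, the 5 macrophage markers from 0.04 for *Mrc1* to 0.66 for *Cd68*, and the red cell genes from -0.14 for *Alas2* to -0.02 for *Hba-a1*. None of these markers passed the criteria.

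The genes with the ETS or NRF1 core in their promoter had log2 fold changes of -0.03 for *Ndufb6*, 0.03 for *Ndufb7*, -0.07 for *Ndufs3*, -0.08 for *Ndufa8* and 0.04 for *Ndufa11*, within the range of the other genes. None of the 6 promoters at hand for genes lower without overlap held any of the 5 motifs.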

How the data were processed

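RNA of 6 mice was measured on 8 Agilent 1-color arrays. The authors deposited, per array, spot intensities from Feature Extraction 12.0.3.1 on a linear scale, already corrected for background, with flags for outlying and well-measured spots. The authors also deposited a score per spot, which equals the log2 processed signal centred and divided by the SD of its array within 0.005. Per the methods, intensities were quantile normalized and compared by z-test.

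Here control spots were dropped, flagged spots set to missing, and log2 processed signals quantile normalized, with means taken per probe and per mouse. A probe entered limma (3.58.1, R 4.3.3) when 3 or more mice were well above background and both genotypes had 2 or more values, with genotype as the only term and p adjusted over all 38888 probes. Fold changes from z-scores were scaled by the mean SD of an array, 4.29. Single differences were compared by exact permutation. The scripts were tested on simulated data. Named were *Grsf1*, core subunits, the *Ndufa4* pair, the 4 highest and 4 lowest members, members without overlap, and the extremes of each list. Of 56605 probes 32994 got a symbol by accession from RefSeq (GRCm38.p6). Its gene coordinates gave the chromosomes of the genes but were not used to match probes, because the array files carry mm9 positions. Members and lists were chosen with earlier results of these data known. The number of mice, 3 of each genotype, limits the precision.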

Additional observations from a re-analysis of the deposited data

How the results depend on the processing

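No complex I gene passed the criteria in any of the 21 other settings, and 0 of the 378 values of named members did. An unadjusted p under 0.05 was reached by 1 complex I gene in limma with an intensity trend and by 8 with the methods' z-test. The complex I median was negative in 20 of the 21 settings. It was -0.10 at the 75th percentile and 0.05 with the deposited z-scores, where the difference of *Ndufa4l2* and *Ndufa4* was -0.02 (exact permutation p = 0.8) and 1 gene was lower without overlap. With the z-scores of the first arrays, chosen after seeing the data, the median was -0.09 and 0 genes were lower without overlap, so that the sign with z-scores rests on the repeat arrays. The first arrays gave 2 genes higher without overlap, and slide 2 alone, with 2 WT mice, gave 14 lower (36.8%, against 13.1% of all probes).

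Probes higher by all criteria numbered 2 with normexp, 2 with an intensity trend and 98 with the z-test, against 1, and probes lower numbered 1 on slide 2 alone and 281 with the z-test, against 2. The cause of these moves was not tested. Leaving out each mouse gave 1 to 2 probes lower, 1 probe higher, 8 to 16 complex I genes lower without overlap (16 without WT 2 and 15 without Grsf1cKO 1), and 0 to 3 higher (3 without WT 1). With 2 mice facing 3 the shares of all probes were 11.4% to 13.3% lower and 5.99% to 7.93% higher. For the slide term WT 1 entered with a value per slide, each at a weight of 0.5, since 1 pair gives no correlation within mice.

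With the replicate number as a block, 0 probes were lower by all criteria, and *Grsf1* kept -2.19 but not the criteria (adjusted p = 0.25 from limma), while 0 complex I genes passed. The numbers do not pair the mice by the labels. The correlations of deviations between same-numbered mice were 0.232, 0.0970 and 0.104. Each mouse correlated best with its own number, but Grsf1cKO 2 had nearly the same value with WT 3 (0.0936). The highest value joins the mice that have repeat arrays. These values come from the data and not the design, and they do not settle whether the mice were paired. Signal over background did not limit the complex I genes.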
